A study of Mus musculus with 2 samples.

Results

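Capillary endothelium of the regenerating mouse digit tip, as set by a rule, was described from 809 of 3937 kept cell barcodes. These came from 2 droplet single-cell libraries, and some of the 809 also held arterial or venous RNA, as given below. A barcode was kept with at least 500 genes, at most 10% mitochondrial UMIs (unique molecular identifiers, 1 per captured RNA molecule) and at least 3000 UMIs. A kept barcode was a member when Pecam1, Cdh5, Kdr, Egfl7, Esam and Emcn summed to at least 5 UMIs per 10000 of that barcode (CP10k), when C1qa, C1qb and C1qc, the complement genes of macrophages, stayed under 10 CP10k, and when Gpihbp1 and Aplnr together had at least 2 UMIs. The library from PdgfraCreERT;R26-LSL-TdT mice gave 278 members of 1612 kept barcodes (17.2%, exact 95% interval 15.4 to 19.2%), and the library from Lmx1bCreERT2;R26-LSL-TdT mice gave 531 of 2325 (22.8%, 21.1 to 24.6%). These are called the Pdgfra and the Lmx1b library. Both lines carried the tdTomato reporter at Rosa26 behind a stop cassette that Cre removes, so there was no library without a driver, a reporter or tamoxifen. Mice of both lines were 10 to 12 weeks old, received 3 mg of tamoxifen by injection on each of 4 days and lost their digit tips 10 days later, and the tissue beyond the cut was collected 14 days after amputation. Pdgfra is used by most fibroblast-like cells and Lmx1b by the dorsal limb mesenchyme, and neither is a usual marker of endothelium. How many animals or digits entered a library was not given. With 1 library per line and cells that are not replicates, no test was made, and all intervals cover counting error alone.

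Capillaries are the thinnest vessels, a tube of endothelial cells on a basement membrane, between the arterioles that feed them and the venules that drain them. Endothelial cells sense vascular endothelial growth factor (VEGF) from hypoxic tissue through the receptors Kdr and Flt1. In sprouting vessels, tip cells lead and signal through Dll4 to Notch receptors on the cells behind them. Gpihbp1 is the protein that binds lipoprotein lipase and carries it to the capillary lumen, and Aplnr is the receptor of the peptide apelin, which is encoded by Apln and made by sprouting endothelium. Plvap forms the diaphragms of fenestrae and caveolae, Emcn is a sialomucin of capillary and venous surfaces, and Egfl7 is a secreted protein of endothelial cells. On the GRCm38 (mm10) build and the GENCODE vM21 annotation, Gpihbp1 is a protein-coding gene at chr15:75596628-75599481 on the plus strand and Aplnr at chr2:85136225-85139923 on the plus strand. Plvap lies at chr8:71497765-71511752 on the minus strand and Apln at chrX:48025146-48034853 on the minus strand.

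Promoters of 3 markers that members carried and of the apelin ligand are shown because endothelial promoters are known for binding sites of ETS factors, whose core is GGAA. They are RefSeq windows of 250 bases on GRCm38.p6, written 5′ to 3′ along the gene's strand, and capitals mark GGAAG or its reverse complement CTTCC, searched on both strands. Kdr lies on chr5:75978456-75978705 (minus strand), Emcn on chr3:137340828-137341077 (plus), Egfl7 on chr2:26580833-26581082 (plus) and Apln on chrX:48034854-48035103 (minus).
Kdr: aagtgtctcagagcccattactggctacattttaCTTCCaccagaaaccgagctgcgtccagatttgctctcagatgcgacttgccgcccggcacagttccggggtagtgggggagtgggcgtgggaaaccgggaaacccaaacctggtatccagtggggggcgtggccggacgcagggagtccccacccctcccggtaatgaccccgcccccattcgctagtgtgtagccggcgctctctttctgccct
Emcn: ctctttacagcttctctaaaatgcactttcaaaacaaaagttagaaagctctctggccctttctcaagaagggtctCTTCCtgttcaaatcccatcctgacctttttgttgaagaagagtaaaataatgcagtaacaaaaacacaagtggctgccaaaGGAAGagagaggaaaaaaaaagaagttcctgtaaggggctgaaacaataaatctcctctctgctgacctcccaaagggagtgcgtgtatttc
Egfl7: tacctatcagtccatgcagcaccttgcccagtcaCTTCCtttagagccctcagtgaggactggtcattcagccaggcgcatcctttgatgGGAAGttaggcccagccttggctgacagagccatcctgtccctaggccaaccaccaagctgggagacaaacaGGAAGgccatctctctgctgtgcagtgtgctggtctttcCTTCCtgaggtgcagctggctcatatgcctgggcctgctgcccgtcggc
Apln: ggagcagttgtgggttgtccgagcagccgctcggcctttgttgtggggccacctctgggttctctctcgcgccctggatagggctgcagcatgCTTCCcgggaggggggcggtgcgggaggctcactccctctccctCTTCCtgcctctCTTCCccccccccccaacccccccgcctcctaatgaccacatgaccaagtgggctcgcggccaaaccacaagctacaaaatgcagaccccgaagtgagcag
The windows held 1 match in Kdr, 2 in Emcn, 4 in Egfl7 and 3 in Apln. Such a match was in 63.6% of all 27025 promoter windows, in 68.6% of those of 7967 tested features and in 65.0% of those of 732 features that were higher in members, so the share in the members' genes was close to that in all windows. A match is a string of letters and not a measured binding site.

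The libraries held 49084751 to 66867027 UMIs on 5032 to 5991 barcodes, and members had a median of 13415 UMIs in the Pdgfra and 13147 in the Lmx1b library, against 19065.5 and 23026.5 in all other kept barcodes. The libraries had 10 barcodes in common, of which 1 was kept and 0 were members. Doublet scores placed 42 kept Pdgfra and 30 kept Lmx1b barcodes among the top-scoring ones, and these stayed in. Members made up 24 of the 42 and 6 of the 30, while they were 17.2% and 22.8% of all kept barcodes. High scores were thus more frequent among members than among other kept barcodes in the Pdgfra library, but not in the Lmx1b library. Some members also carried RNA of other cells: 46 Pdgfra and 19 Lmx1b members had at least 100 CP10k of 8 mesenchymal markers (Col1a1, Dcn and others) or at least 10 CP10k of 10 pericyte and smooth muscle markers (Rgs5, Acta2 and others). They are called mixed barcodes. Levels are over all members, and the level without mixed barcodes is added for genes set against the rest of the library where it differs by more than 1.5-fold. The summed mesenchymal markers came to 27387 CPM (UMIs summed over barcodes, on a scale where 100 CPM is 1 CP10k) in Pdgfra and 3191 CPM in Lmx1b members, while their medians per barcode were 24.0 and 14.6 CP10k. Of the T, NK and B cell markers, Cd3e and Ms4a1 were at 0 in members of both libraries, and the summed macrophage markers were at 52.0 and 39.7 CPM.

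The 6 markers given with the label of capillary endothelium were Gpihbp1, Aplnr, Plvap, Kdr, Emcn and Egfl7, of which the rule used each but Plvap. Gpihbp1 had a UMI in 83.5% of Pdgfra members and 82.9% of Lmx1b members, and Aplnr in 90.3% and 90.8%. In non-endothelial barcodes, which are deeper (median 20330 and 24479 UMIs), Gpihbp1 had a UMI in 5.01% and 5.56% and Aplnr in 3.51% and 4.62%. After each barcode was thinned to 3000 UMIs, the shares for Aplnr were 66.2% and 67.2% in members against 0.501% and 0.874% in non-endothelial barcodes. Plvap, which the rule did not use, was found in 98.6% and 99.4% of members at median levels of 14.2 and 21.2 CP10k. Egfl7 was found in 100% of members of both libraries, at 16.2 and 19.9 CP10k. Of the lipid-handling genes, Cd36, a fatty acid transporter, had a UMI in 2 members of each library. Lpl, the lipase that Gpihbp1 holds, had a UMI in 12.6% and 4.90% of members, against 37.8% and 37.7% of non-endothelial barcodes. Fabp4, a fatty acid binding protein, went the other way, at 16.5% and 17.5% against 5.84% and 5.06%.

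**Figure D1:**
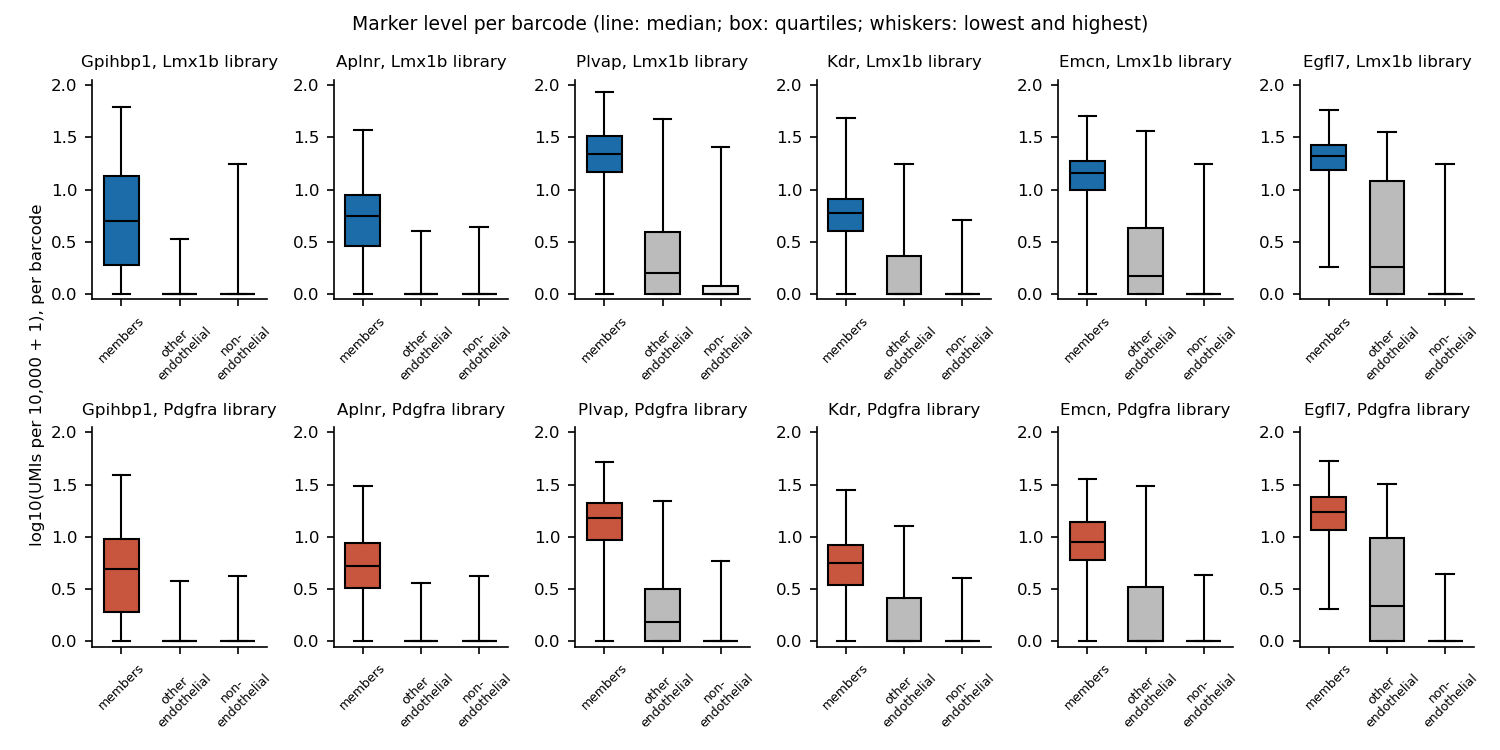
Level of the 6 markers per barcode as log10 of UMIs per 10000 plus 1, for members, other endothelial barcodes and non-endothelial barcodes of the Lmx1b (upper) and Pdgfra (lower) library, with the median as a line, quartiles as the box and lowest and highest values as whiskers. Gpihbp1 has its median at 3.98 and 3.92 CP10k in members of the Lmx1b and Pdgfra library and at 0 in both other groups. Other endothelial barcodes have 0 or 1 UMIs of Gpihbp1 and Aplnr together by the rule, so their low level of these genes follows from it.

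Most members lay far above the rule's limits. The 2 genes had a median of 14 UMIs together in members of either library, and at the limit 19 Pdgfra and 32 Lmx1b members had exactly 2 UMIs. Just outside it, 21 and 34 endothelial barcodes had 1 UMI. The endothelial genes of the rule had medians of 50.3 and 63.9 CP10k in those with 2 UMIs. Those with 1 UMI were somewhat lower, at 36.8 and 44.3 CP10k. Barcodes with 0 UMIs of the pair were far lower, at 7.87 and 7.95 CP10k, close to the limit of 5. A further 10 and 15 barcodes had 2 UMIs or more of the pair but missed the endothelial limit, and 0 and 2 missed the C1q limit.

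Gpihbp1 and Aplnr were found together in most members, a share that the rule itself raises. A barcode with 1 UMI of each gene passes, a barcode with only 1 of the genes needs 2 UMIs of it, and barcodes with neither are barred. Among all endothelial barcodes, both genes were in 205 of 414 Pdgfra and 391 of 724 Lmx1b barcodes, and neither was in 115 and 159. Both had a UMI in 205 of 278 Pdgfra members (73.7%, 68.2 to 78.8%) and in 391 of 531 Lmx1b members (73.6%, 69.7 to 77.3%). Gpihbp1 was found without Aplnr in 27 and 49 members, and Aplnr without Gpihbp1 in 46 and 91. These were shallower, at median 9806 and 11472 UMIs with Gpihbp1 alone and 10494.5 and 11709 UMIs with Aplnr alone, against 15458 and 13865 UMIs with both. Neither gene led: Gpihbp1 had more UMIs than Aplnr in 127 and 270 members, and fewer in 139 and 242.

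**Figure D2:**
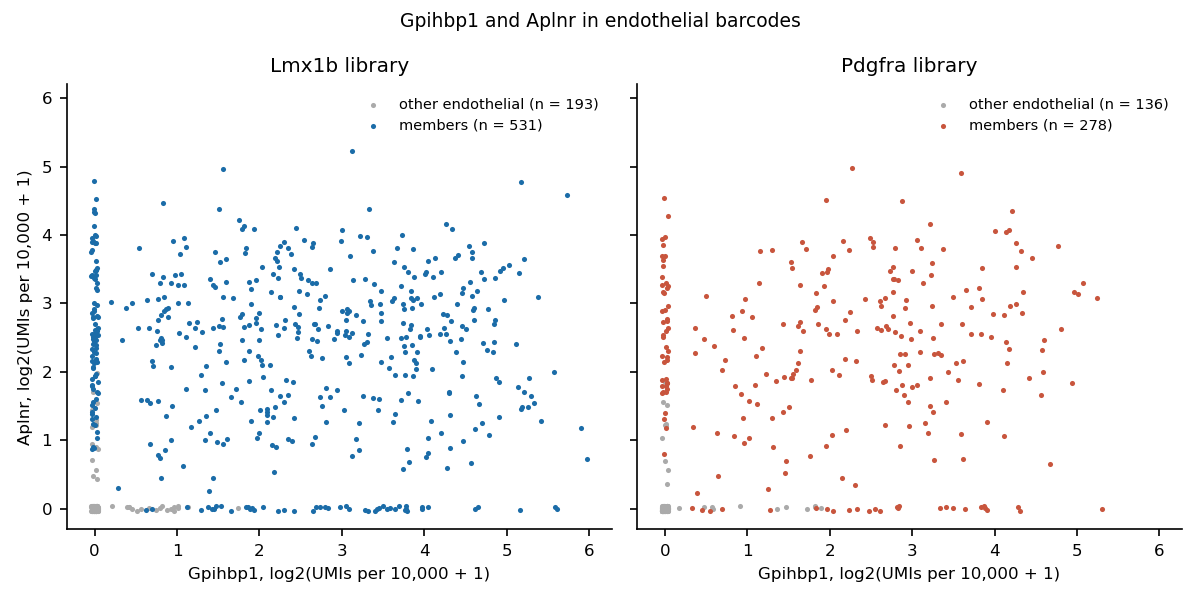
Gpihbp1 (x axis) against Aplnr (y axis) in each endothelial barcode of the 2 libraries, as log2 of UMIs per 10000 plus 1, members in colour and other endothelial barcodes in grey. Points on an axis have 0 UMIs of the other gene, which holds for 49 and 91 Lmx1b and 27 and 46 Pdgfra members with Gpihbp1 alone and Aplnr alone.

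Against all other kept barcodes, members were high in receptors of vessel growth and low in 3 of the ligands. A feature is called where the fold was 2 or more in the same direction in both libraries, among 10323 features with a mean of at least 5 CPM; 9.7% were called higher and 8.97% lower. These are descriptions, since the rule chose members by endothelial genes. Kdr, the main VEGF receptor, was at 454 CPM in members and 9.05 CPM in the rest of the Pdgfra library, and at 588 and 8.86 CPM in the Lmx1b library, a fold of 50.2 (44.6 to 56.7) and 66.3 (60.1 to 73.4). The range in brackets after a fold is its exact 95% Poisson interval. Flt1, the VEGF receptor known as a decoy, was at 721 against 23.4 CPM and 815 against 23.0 CPM. Tek, the angiopoietin receptor, was at 191 against 5.02 CPM and 250.3 against 5.83 CPM. Members thus stood far above the rest for these 3 receptors in both libraries.

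Among the 6 measured ligands of these families, Vegfa, Angpt1 and Angpt2 were called lower, Vegfc higher, and Vegfb and Pgf in neither direction. Vegfa was at 13.8 CPM in Pdgfra members against 40.0 CPM in the rest, and at 11.7 against 44.8 CPM in the Lmx1b library. Angpt1, the activating ligand of Tek, was at 4.81 against 16.5 CPM and 0.841 against 15.6 CPM. Angpt2, its context-dependent antagonist, was also called lower, at 12.6 against 29.3 CPM and 13.0 against 69.3 CPM. Without mixed barcodes the Pdgfra members were at 5.89 CPM for Vegfa, 0 for Angpt1 and 6.42 CPM for Angpt2, and the Lmx1b members at 0.558 CPM for Angpt1. Vegfc, a ligand of Flt4 and Kdr, was at 67.4 against 15.6 CPM and 95.6 against 13.8 CPM. Members were also high in Pdgfb, the ligand that recruits pericytes, at 153 against 21.1 CPM and 226 against 19.4 CPM. Apln was at 95.2 against 2.27 CPM, a fold of 41.9 (33.0 to 53.9), and at 124 against 6.11 CPM, a fold of 20.4 (17.9 to 23.2), and Pdgfra members without mixed barcodes had 144 CPM. Its receptor Aplnr was used by the rule, while Apln was not. In the 2 libraries 47.1% and 40.1% of members had an Apln UMI (21.6% and 19.2% after thinning) against 4.42% and 9.06% of the deeper non-endothelial barcodes. Of 15 VEGF and angiopoietin genes, 14 passed the filter on low values, and 8 were called higher, 7 of them receptors or their partners, and 3 lower.

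**Figure D3:**
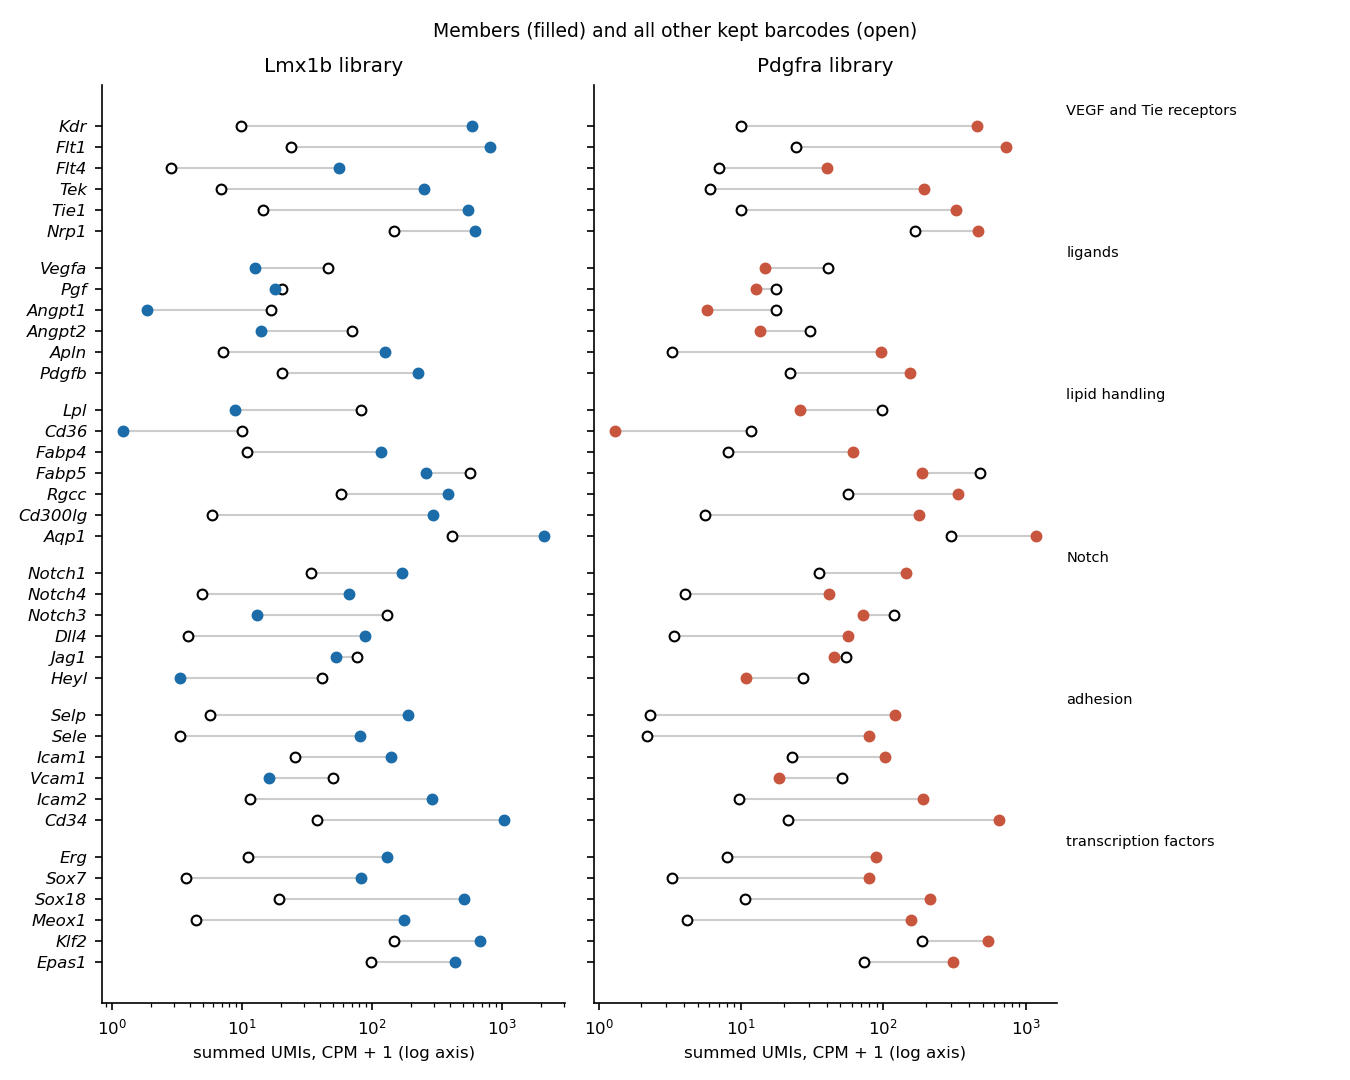
Summed UMIs as CPM plus 1 on a log axis, for members (filled) and all other kept barcodes (open) of each library, with genes grouped by role. Receptors such as Kdr and Tek lie far to the right in members, while Vegfa (13.8 and 11.7 CPM in Pdgfra and Lmx1b members) and Cd36 lie to the left of the open circles.

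Genes of capillary identity and lipid handling were divided. Of 19 genes on that list 13 passed the filter, 6 were called higher and 3 lower, with a median log2 difference of -0.12 in the Pdgfra and 0.03 in the Lmx1b library against 0.14 and 0.25 over all features. Rgcc, a cell cycle regulator found in capillary endothelium, was at 331 against 55.2 CPM and 385 against 57.1 CPM. Cd300lg, a surface receptor of capillary and lymph-node vessels, was at 177 against 4.60 CPM (266 CPM in members without mixed barcodes) and 296 against 4.83 CPM. Fabp4, a fatty acid binding protein, was at 60.3 against 7.11 CPM and 117 against 9.95 CPM. Its relative Fabp5 was lower, at 186 against 477 CPM and 261 against 573 CPM. Lpl was lower as well, at 24.8 against 97.7 CPM and 7.88 against 81.9 CPM, and members without mixed barcodes had 2.14 and 2.12 CPM. Cd36 did not pass the filter and had 2 UMIs in members of each library, a fold of 0.0281 (0.00339 to 0.102) and 0.0235 (0.00284 to 0.0854).

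The 10 features with the largest folds included genes with no part in the rule. Btnl9, a butyrophilin-like surface protein, was at 22.9 against 0.239 CPM and 25.9 against 0.189 CPM. Tnfsf10, the death ligand TRAIL, was at 39.7 against 0.478 CPM (61.0 CPM in members without mixed barcodes) and 43.7 against 0.735 CPM. Tacr1, the receptor of substance P, was at 43.6 against 0.597 CPM and 71.0 against 1.28 CPM. Nxpe2 (118 against 1.40 CPM and 165 against 1.80 CPM), Fam167b, Tmem252 and Adamtsl2 also stood among them, as did Gpihbp1, Aplnr and Emcn of the rule. At the other end were macrophage genes, whose C1q members the rule kept low: Spi1, the myeloid transcription factor, was at 0.902 against 73.6 CPM and 0.736 against 60.6 CPM, and Ctss, a lysosomal protease, at 3.16 against 217 CPM and 2.00 against 209.6 CPM.

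Transcription factors, Notch genes and basement membrane followed the endothelial pattern. Of 23 measured endothelial transcription factors, 19 were called higher and 0 lower. Meox1 was at 155 against 3.20 CPM and 175 against 3.42 CPM, and Sox18, which acts in vessel development, at 213 against 9.74 CPM and 508 against 18.3 CPM. In the Notch list 8 of 16 were called higher and 3 lower. Dll4, the ligand of tip and arterial cells, was at 55.6 against 2.39 CPM and 88.2 against 2.85 CPM, and Notch4, an endothelial receptor, at 40.8 against 3.08 CPM and 65.5 against 3.90 CPM. The pericyte-side target Heyl was lower, at 9.93 against 26.4 CPM and 2.31 against 40.2 CPM, with 1.07 and 0.223 CPM in members without mixed barcodes. Of 16 basement membrane genes 12 were called higher and 0 lower, among them Col4a1, a chain of type IV collagen, at 2559 against 567 CPM and 3160.2 against 463 CPM.

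The selectins of inflamed venules were high in members, while Vcam1 and Cd74 were low. Selp, the P-selectin that catches leukocytes, was at 119.7 against 1.31 CPM and 189 against 4.66 CPM. Sele, the E-selectin induced by cytokines, was at 78.8 against 1.19 CPM (119 CPM in members without mixed barcodes) and 79.7 against 2.31 CPM. Vcam1, a ligand for leukocyte integrins, was lower at 17.4 against 50.2 CPM (7.23 CPM in members without mixed barcodes) and 15.1 against 49.3 CPM. Cd74, the class II chaperone, was at 8.42 against 381 CPM and 19.8 against 544 CPM. On the list of leukocyte adhesion and antigen presentation 19 genes were measured, 10 called higher and 5 lower. Selp UMIs were in 40.3% of Pdgfra and 51.2% of Lmx1b members, or 16.9% and 28.2% after thinning.

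The remaining vascular lists also lay above the rest. Of 16 measured junction, fenestra and caveola genes 14 were called higher and 0 lower, of 18 apelin and tip cell genes 12 and 1, of 16 arterial genes 10 and 1, of 15 venous genes 11 and 2, and of 15 flow and vascular tone genes 10 and 1. Of 18 BMP and TGF-beta genes 8 were called higher and 1 lower, and of 20 endothelium-derived signals 8 and 2. The 6 measured lymphatic genes had 2 called higher and 3 lower, the 15 hypoxia and glycolysis genes 1 and 2, and the 12 imprinted genes 0 and 4. The 14 dissociation stress genes had 0 called in either direction. In the cell cycle list 1 of 14 was called, Tyms, the thymidylate synthase, at 62.0 against 26.1 CPM and 83.0 against 25.7 CPM. A barcode counted as cycling with 2 or more UMIs over 6 proliferation genes. After thinning to 3000 UMIs this held for 8.27% of Pdgfra and 8.29% of Lmx1b members, for 7.60% and 5.56% of non-endothelial barcodes and for 5.15% and 6.74% of other endothelial barcodes. Without thinning the members' shares were 21.2% and 17.7%. The part of free RNA in these shares was not tested.

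The nearest comparison was with the 136 Pdgfra and 193 Lmx1b endothelial barcodes that had 0 or 1 UMIs of Gpihbp1 and Aplnr. As a group these were thin in endothelial RNA, at a median of 9.07 and 9.18 CP10k against 60.3 and 71.8 CP10k in members, and 74 and 110 of them had at least 10 CP10k of pericyte and smooth muscle markers. Of 10057 features, 3.7% were called higher in members and 4.92% lower. Because of the mural RNA, the comparison was repeated, after the data were seen, at 20 CP10k or more of the endothelial genes and without mixed barcodes on either side. That left 232 Pdgfra and 512 Lmx1b members against 47 and 68 others, with 1.89% of 9523 features called higher and 1.88% lower. Depth differed in the Pdgfra library, with medians of 11911.5 UMIs in members and 8428 in others, against 13072 and 11983 in the Lmx1b library.

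Between these cleaner endothelial groups, members were higher in several capillary, apelin and basement membrane genes. Rgcc was at 487 CPM in Pdgfra members against 42.7 CPM, a fold of 11.4 (7.70 to 17.7), and at 396 against 26.5 CPM in the Lmx1b library, a fold of 14.9 (10.0 to 23.4). Cd300lg was at 266 against 30.8 CPM and 304 against 32.0 CPM. Ramp3, which pairs with receptors of adrenomedullin, was at 81.6 against 8.54 CPM and 139 against 15.5 CPM, and Ednrb, an endothelin receptor, at 108 against 5.13 CPM and 155 against 21.0 CPM. Apln differed in size between libraries, at 144 against 5.13 CPM, a fold of 28.1 (9.56 to 137), and 128 against 33.1 CPM, a fold of 3.86 (2.69 to 5.75). Col15a1, a collagen of the vascular basement membrane, was at 829 against 123 CPM and 868 against 215 CPM. Of 11 measured capillary and fatty acid genes, Gpihbp1 among them, 4 were called higher and 1, the fatty acid transporter Slc27a3, lower. Of 16 measured basement membrane genes 7 were called higher and 0 lower, and of 18 apelin and tip cell genes, Aplnr among them, 7 higher and 0 lower. Other lists that had many genes called against all other kept barcodes had few called here. Of 13 measured VEGF and angiopoietin genes 1 was called higher and 1 lower, and of 23 endothelial transcription factors 1 and 1. Of 17 leukocyte adhesion and antigen presentation genes 0 were called in either direction.

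The same endothelial barcodes without the pair held more arterial RNA, and some of them held lymphatic RNA. Of 17 measured arterial genes 11 were called lower in members and 0 higher, with a median log2 difference of -1.75 in the Pdgfra and -1.28 in the Lmx1b library against 0.03 and 0.08 over all features. Gja4, an arterial connexin, was at 106 against 494 CPM and 87.2 against 324 CPM. Sema3g, an arterial semaphorin, was at 39.9 against 236 CPM and 42.3 against 184 CPM. Cldn5, the tight junction claudin, was at 334 against 2544 CPM and 411 against 1752 CPM, the 1 called gene of 20 on the pan-endothelial list. Of 9 measured lymphatic genes 6 were called lower: Lyve1, the hyaluronan receptor, was at 5.62 against 157 CPM and 7.03 against 96.1 CPM, and the chemokine Ccl21a at 6.42 against 4089 CPM and at 0 against 911 CPM, at least 2722-fold higher in the others. These lymphatic sums rest on few barcodes: before the stricter limits Ccl21a had a UMI in 21 of 136 Pdgfra and 5 of 193 Lmx1b barcodes without the pair, and the median of 10 lymphatic markers there was 0.420 and 0 CP10k, against 0.508 and 0.584 CP10k in members. Venous genes did not divide in this way, with a median log2 difference of 0.49 and 0.18 over 15 measured genes.

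Members were not uniform, and the pair of genes went with different neighbours. Members with Gpihbp1 and 0 UMIs of Aplnr were compared with members with Aplnr and 0 of Gpihbp1, at least 2 UMIs of the present gene in each. Of 9406 features, 1.88% were called higher with Gpihbp1 alone and 2.13% with Aplnr alone. The split uses genes of the rule, and the groups hold 27 and 46 barcodes in the Pdgfra and 49 and 91 in the Lmx1b library. Of 16 arterial genes 7 were called higher with Gpihbp1 alone and 0 with Aplnr alone, and of 15 venous and post-capillary genes 0 and 9. The median log2 difference of the arterial list was 1.47 and 0.79, and that of the venous list -1.45 and -2.24, against -0.06 and 0.00 over all features.

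Arterial genes and part of the apelin and tip cell list stood high with Gpihbp1 alone. Of 18 measured genes on that list, Aplnr among them, 7 were called higher with Gpihbp1 alone and 1 with Aplnr alone. Apln was not among the 7, at 70.4 CPM with Gpihbp1 alone against 70.8 CPM in the Pdgfra library and 24.3 against 41.5 CPM in the Lmx1b library. Gja4 was at 632 CPM with Gpihbp1 alone and 13.0 CPM with Aplnr alone in the Pdgfra library, a fold of 48.6 (25.3 to 107), and at 546 and 9.46 CPM in the Lmx1b library, a fold of 57.7 (33.4 to 109). It had a UMI in 14 of 27 against 5 of 46 barcodes and in 35 of 49 against 9 of 91, so it was spread over barcodes, although 1 Pdgfra barcode held 64.6% of its UMIs and the level without that barcode was 328 CPM. Gja5, its arterial relative, was at 56.0 and 51.0 CPM against 0 in both libraries, at least 12.9-fold and 23.3-fold higher on a floor of 3 counts over the group. Dll4 was at 90.3 against 15.9 CPM and 269 against 23.3 CPM. Cxcl12, a chemokine of arterial endothelium, was at 782 against 166 CPM and 1387 against 240.2 CPM. Unc5b, a netrin receptor of tip and arterial cells, was at 86.7 against 15.9 CPM and 120.2 against 5.10 CPM. Hey1, a Notch target, was at 43.3 against 8.66 CPM and 75.3 against 4.37 CPM, and 5 of 14 measured Notch genes were called higher with Gpihbp1 alone and 0 with Aplnr alone.

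Venous and inflamed-venule genes stood high with Aplnr alone. Sele was at 179 CPM with Aplnr alone against 3.61 CPM in the Pdgfra library, a ratio of 49.6 (13.4 to 414), and at 194 against 2.43 CPM in the Lmx1b library, a ratio of 80.1 (21.9 to 665). It had a UMI in 24 of 46 against 2 of 27 barcodes and in 52 of 91 against 1 of 49. Selp was at 150.2 against 9.03 CPM, a ratio of 16.6 (6.91 to 52.3), and at 413 against 26.7 CPM, a ratio of 15.5 (10.1 to 24.9). Both selectins were thus sparse in barcodes with Gpihbp1 alone. Ackr1, a chemokine-binding receptor of venules, was at 60.6 CPM against 0, at least 11.2-fold higher, and at 229 against 3.64 CPM, a ratio of 62.8 (21.3 to 306). Lrg1, a secreted glycoprotein of venules, was at 186 against 39.7 CPM and 492 against 103 CPM. Nr2f2, the transcription factor of venous identity, was at 238 against 132 CPM and 396 against 40.1 CPM, and the ratio of 1.81 in the Pdgfra library missed the call.

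Members with both genes fell between the groups for Gja4, Dll4, Sele and Selp and above them for Rgcc, Apln and Plvap. Rgcc was at 383 CPM with both, 88.5 CPM with Gpihbp1 alone and 121 CPM with Aplnr alone in the Pdgfra library, and at 472, 135 and 67.0 CPM in the Lmx1b library. Apln was at 101, 70.4 and 70.8 CPM and at 151, 24.3 and 41.5 CPM in that order. Plvap was at 1229, 610.2 and 913 CPM and at 2414, 1416 and 1450.2 CPM. These barcodes were also the deepest, as given above, and the part of depth in these levels was not tested.

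**Figure D4:**
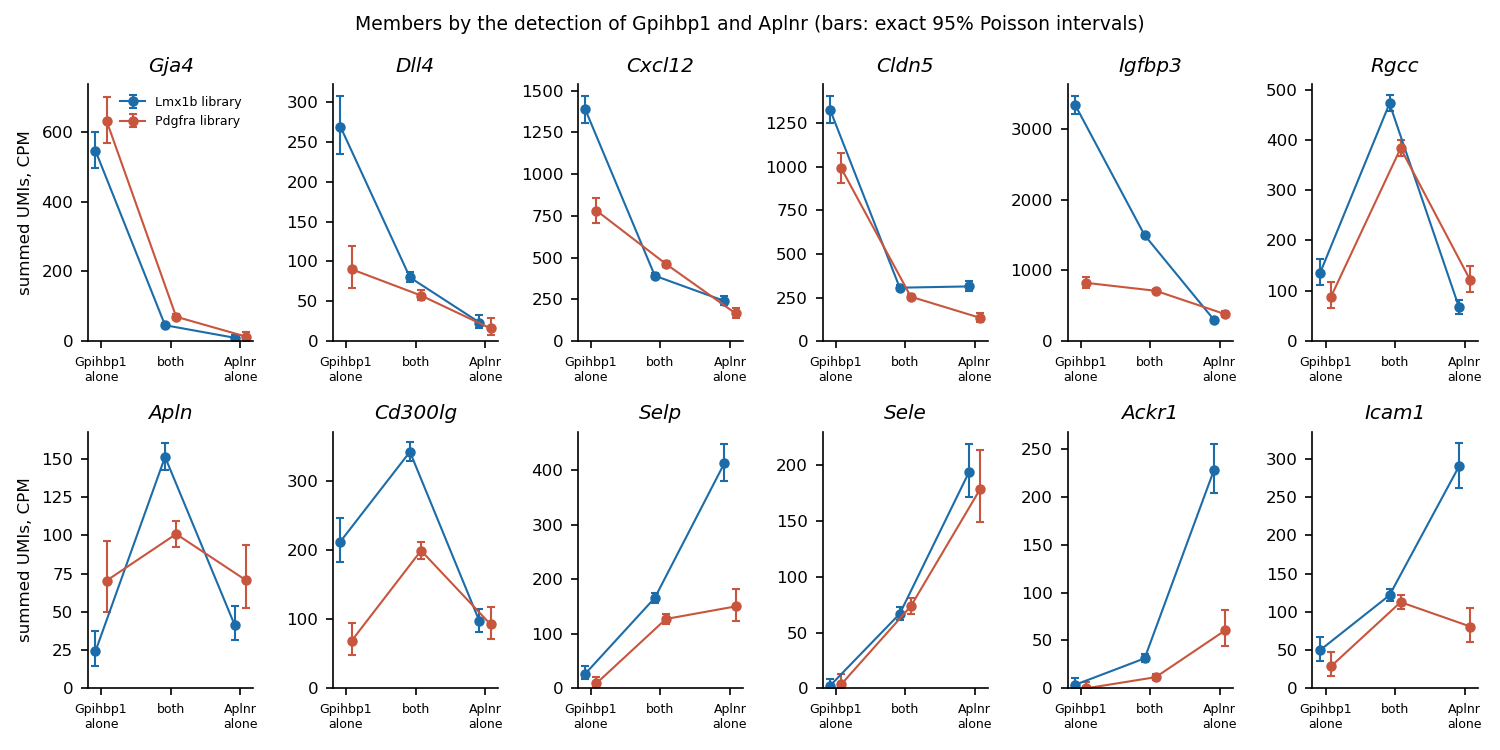
Summed UMIs as CPM (y axis, linear, from 0) for 12 genes in members with Gpihbp1 alone, with both genes and with Aplnr alone; points are the libraries' values and bars exact 95% Poisson intervals. Gja4 falls from 546 and 632 CPM to 9.46 and 13.0 CPM from left to right in the Lmx1b and Pdgfra library, Sele runs the other way, and Rgcc is highest in the middle.

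The split kept its shape without the mixed barcodes. With 21 and 38 barcodes in the Pdgfra and 49 and 84 in the Lmx1b library, 1.28% of 9161 features were called higher with Gpihbp1 alone and 1.94% with Aplnr alone. Arterial genes again had 7 called with Gpihbp1 alone and 0 with Aplnr alone, and venous genes 0 and 10. Gja4 was then at 447 against 12.4 CPM and 546 against 8.90 CPM, and Dll4 had a fold of 3.43 (1.52 to 8.10) in the Pdgfra library. There the ratio in favour of Aplnr alone was 26.1 (7.07 to 218) for Sele and 7.21 (2.96 to 22.8) for Selp, the bound for Ackr1 was 5.41 and that for Gja5 in favour of Gpihbp1 alone 8.14. In the same barcodes Cxcl12 was at 1401 against 186 CPM and Hey1 at 71.7 against 2.48 CPM. Nr2f2 passed the call at 318 against 33.1 CPM and 417 against 40.1 CPM with Aplnr alone. Proliferation genes did not hold: Top2a was at 39.7 against 17.3 CPM and 102 against 2.91 CPM over all such members, but 95.5% and 76.2% of its UMIs with Gpihbp1 alone came from 1 barcode, and without the mixed barcodes it was at 5.51 against 27.3 CPM in the Pdgfra library.

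The members of the 2 libraries were also compared, which compares libraries and not mouse lines. Of 10215 features, 1.05% were at least 2-fold higher in Lmx1b and 5.36% in Pdgfra members. The second group included mesenchymal genes: Col1a1, the chain of type I collagen, was at 11107 CPM in Pdgfra and 1509 CPM in Lmx1b members, and at 681 and 564 CPM without the mixed barcodes. Without them, 0.97% of 9902 features were higher in Lmx1b and 0.747% in Pdgfra members. The markers differed by up to 1.40-fold, with Plvap at 1613 CPM in Pdgfra and 2253 CPM in Lmx1b members, a fold of 1.40 (1.36 to 1.44), Emcn at 1092 and 1430.3 CPM and Kdr at 624 and 602 CPM. Aplnr was at 567 and 518 CPM and Gpihbp1 at 667 and 809 CPM, both used by the rule. Of 20 pan-endothelial genes 0 were called in either direction.

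Some lists still leaned to the Lmx1b library among the cleaner members, while 0.97% of all features were called higher there. Of 18 measured leukocyte adhesion and antigen presentation genes 5 were called higher in Lmx1b members and 0 lower. Of 15 venous genes the calls were 4 and 0, and of 14 cell cycle genes 3 and 0. Of 16 arterial genes and 23 endothelial transcription factors 0 were called in either direction. Kcne3, a potassium channel subunit reported in tip cells, was at 28.1 CPM in Pdgfra and 69.4 CPM in Lmx1b members, a fold of 2.47 (2.01 to 3.07) higher in the Lmx1b library. In all other kept barcodes Kcne3 had the same direction at low levels, 0.358 and 0.756 CPM. Ackr1 was at 19.01 and 59.2 CPM, a fold of 3.11 (2.43 to 4.05), and Vwf, the clotting factor of endothelial granules, at 150.4 and 306 CPM, a fold of 2.03 (1.86 to 2.23). Hbb-bs, a haemoglobin chain, was at 421 and 38.3 CPM, but among all members 1 Pdgfra barcode held 78.7% of its UMIs and the level without it was 52.5 CPM. Genes that led the full comparison also rested on few cells: Cxcl9, an interferon-induced chemokine, was at 19.02 CPM in Lmx1b members from 3 barcodes of 531 and at 0 in Pdgfra members. Gm21887 was at 13.1 CPM in Pdgfra and 0.525 CPM in Lmx1b members, with the same direction in all other kept barcodes (9.26 and 0.860 CPM). Mouse line, animals and library preparation cannot be told apart here.

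The tdTomato reporter was high in part of the Pdgfra members and lower in the Lmx1b members. At 1600 CPM or more, a level taken from earlier results of these data, 105 of 278 Pdgfra members (37.8%, 32.0 to 43.8%) and 1 of 531 Lmx1b members (0.188%, 0.00477 to 1.04%) were labelled. Other endothelial barcodes were labelled in 57 of 136 (41.9%) and 1 of 193 cases, all other kept barcodes in 50.8% and 3.73%, and macrophage-like barcodes in 8 of 86 (9.30%, 4.10 to 17.5%) and 0 of 87. Without mixed barcodes the share was 71 of 232 (30.6%, 24.7 to 37.0%) in Pdgfra members, and 0 of 512 in Lmx1b members (exact interval 0 to 0.718%). Labelled Pdgfra members were deeper than unlabelled ones, at median 24546 against 11537 UMIs, and had more mesenchymal RNA in sum, at 38392 against 14021 CPM, with medians of 24.7 and 23.9 CP10k per barcode. The driver gene Pdgfra itself was at 37.3 CPM in Pdgfra members against 104 CPM in the rest of that library, and at 6.10 against 92.7 CPM in the Lmx1b library, with 5.62 and 3.46 CPM in members without mixed barcodes. At least 1 tdTomato UMI was found in 93.9% and 91.1% of members and in 86.0% and 50.6% of macrophage-like barcodes, which had medians of 22404 and 28092 UMIs, and a single UMI was read as background. The part that mesenchymal RNA, free RNA or a second cell in the droplet plays in the labelled members was not tested.

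**Figure D5:**
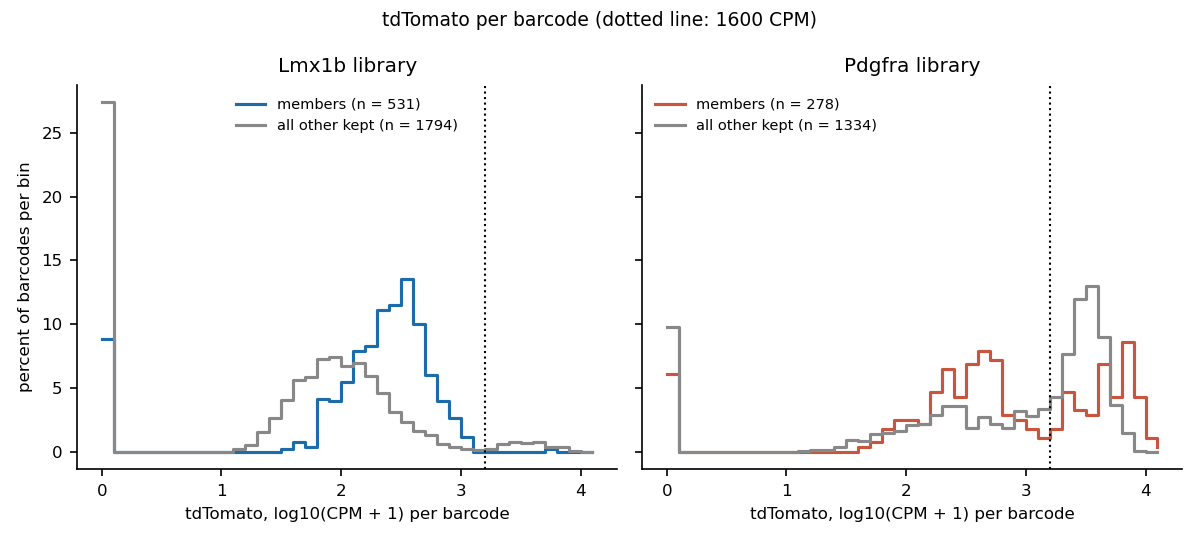
Distribution of tdTomato per barcode (x axis, log10 of CPM plus 1; y axis, percent of barcodes per bin) in members (colour) and all other kept barcodes (grey) of each library, with a dotted line at 1600 CPM. Pdgfra members form a low and a high group, with 37.8% at or beyond the line, while 1 of 531 Lmx1b members lies there.

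Xist, the RNA of the inactive X chromosome, was unevenly spread. It had a UMI in 60 of 531 Lmx1b members (11.3%, 8.73 to 14.3%) and 67 of 1601 non-endothelial barcodes of that library (4.18%), and in 5 of 278 Pdgfra members (1.80%) and 33 of 1198 non-endothelial barcodes (2.75%). The sexes of the animals in each library were not used here.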

How the data were processed

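Regenerating digit tips were measured by 10x 3' single-cell RNA sequencing in 1 Lmx1b and 1 Pdgfra library. The values are raw UMI counts per gene and barcode, deposited by the authors. Per the file headers they come from Cell Ranger 4.0.0, and the labels' protocols name mm10 plus tdTomato as the reference. How barcodes were chosen before deposit is not given in the sources used here. Digits were dissociated in Liberase at 280 µg/ml per the labels' protocols. Matrices hold 28001 features, and 0 value columns belong to no sample.

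Counts were processed with Python 3.11.15, numpy 2.4.6, scipy 1.17.1, pandas 2.3.3 and, for Scrublet doublet scores, scanpy 1.11.5; figures used matplotlib 3.10.9. Barcodes under 500 genes (1504 Lmx1b, 1410 Pdgfra), over 10% mitochondrial UMIs (2785, 2219) or under 3000 UMIs (2949, 2824) were left out. UMIs were summed over the barcodes of each side per library and given as CPM; log2 differences used a pseudocount of 1 CPM. Folds have exact 95% Poisson-ratio intervals and shares Clopper-Pearson intervals; both cover counting error only. A side at 0 was set to 3 counts for a bound. Doublet scores marked the top 0.8% per 1000 barcodes (287 and 203) and removed none in the main results; the automatic threshold marked 0 barcodes. The sums were tested on simulated counts.

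Named genes are the markers of the rule; from each gene list up to 4 with the highest and lowest fold against all other kept barcodes and any above 200 CPM in members of both libraries; and the 10 largest folds in each direction per comparison, taken as the library nearer to 1. Other list members were named after their values were seen. Members and lists were chosen with earlier results of these data known. Alternatives changed the barcode limits, the rule's limits, the fold, the low-value filter, depth and summing. Promoters came from a RefSeq table of GRCm38.p6, in which Gpihbp1, Aplnr and Plvap were not found. The opposite folds of 1 gene between the libraries are not reported here.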

Additional observations from a re-analysis of the deposited data

Results flagged for a closer look

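Some barcodes outside the kept set met the remaining limits for capillary endothelium. There were 342 such barcodes in the Lmx1b library, 9.33% of the 3666 left out, of which 297 were over the mitochondrial limit, and 285 in the Pdgfra library, 8.33% of 3420, of which 209 were over it.

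Some genes had folds in opposite directions in the 2 libraries, and the difference was not tested. Against other endothelial barcodes, Flt4, the lymphatic VEGF receptor, had a fold of 2.35 in Lmx1b and of 0.381 in Pdgfra barcodes, and Nts, the neurotensin precursor, 4.64 and 0.245. Of the Nts UMIs of Lmx1b members, 1 barcode held 54.1%, and the members' level without it was 26.7 CPM in place of 57.7 CPM. The other endothelial barcodes of the Pdgfra library had more lymphatic RNA, with Ccl21a at 1464 CPM against 269.9 CPM in the Lmx1b library.

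Between members with Gpihbp1 alone and Aplnr alone, the folds in the Lmx1b and Pdgfra library were 3.71 and 0.347 for Vcam1, 4.03 and 0.302 for Flt4, 2.50 and 0.469 for Mcm2, and 5.34 and 0.417 for Mcm5. The mural genes Notch3 (0.392 and 17.7) and Gucy1a1 (0.0981 and 3.75) did the same, as did the imprinted RNA Meg3 (0.152 and 2.50), of which 1 Pdgfra barcode with Gpihbp1 alone held 96.8% of the UMIs. These groups hold 27 to 91 barcodes.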

How the results depend on the processing

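Over the alternatives, 284 named-gene results gave 3976 values. Of these, 3086 stayed within a fixed log2 distance of the main value, 874 moved further and 16 reversed. That distance is not a measure of counting error. Among the counts and shares 96 stayed and 46 moved. Members were 8.42% of kept Lmx1b barcodes and 11.005% of Pdgfra barcodes at 1000 genes and 5% mitochondrial UMIs, 21.0% and 15.2% from 1000 UMIs, and 20.3% and 15.0% with 4 UMIs of the pair. The Pdgfra share was 19.3% at 200 genes and 25% mitochondrial UMIs and 14.4% without mixed barcodes. Against all other kept barcodes, 1695 features were higher and 2148 lower with no low-value filter, and 1849 and 1396 at a fold of 1.5. Against other endothelial barcodes the numbers were 136 and 166 at a limit of 10 CP10k, 581 and 862 with no filter, 905 and 803 at a fold of 1.5, 180 and 179 under the stricter limits, and 224 higher with 4 UMIs of the pair. Under those stricter limits the log2 differences of genes that had been lower turned positive: in the Lmx1b library Vtn, Naalad2 and Ccl11 (0.15 each), Sstr2 (0.92), Plac8 (0.74) and Adap2 (0.29), and in the Pdgfra library Sstr2 (0.62) and Plac8 (0.85). These values lie near the floor: at the pseudocount of 1 CPM, 0.15 is what 1 UMI in such Lmx1b members gives against 0 in the others. In the Pdgfra library 0.62 is what 2 UMIs in members give against 0. Ccl21a reached 1.15 in the Lmx1b library with 1 UMI of the pair. Between libraries, Lmx1b members were higher in 806 features at 1000 genes and 5% mitochondrial UMIs, 348 when thinned, 641 with no filter and 619 at a fold of 1.5. Pdgfra members were higher in 285 by the mean of barcode CPM, 1658 with no filter, 913 at a fold of 1.5 and 74 without mixed barcodes. Reversed log2 values (Lmx1b over Pdgfra) were -0.45 for Bglap at 1000 genes and 5% mitochondrial UMIs, 0.17 for Ccl21a with 1 UMI of the pair and 0.074 for Gpha2 without mixed barcodes. For Gpihbp1 alone against Aplnr alone, 339 features were higher with Aplnr at 4 UMIs of the pair, and with Gpihbp1 114 when thinned and 117 without mixed barcodes; a fold of 1.5 gave 430 with Gpihbp1 and 545 with Aplnr. Lama3 and Egfl8 went to -3.17 in the Pdgfra library at 1000 genes and 5% mitochondrial UMIs, and Crabp2 in the Lmx1b library to 0.29 without mixed barcodes and 0.48 without Xist barcodes. Labelled members were 3.95% of Lmx1b members at 800 CPM and 0% without mixed barcodes, and 28.4% of Pdgfra members at 3200 CPM and 30.6% without mixed barcodes. Unthinned shares in the Lmx1b and Pdgfra library were 82.9% and 83.5% for Gpihbp1, 90.8% and 90.3% for Aplnr, 40.1% and 47.1% for Apln and 51.2% and 40.3% for Selp. The cause of these changes was not tested, beyond the construction of each setting. No paired analysis was possible because there was 1 library per mouse line, and leaving out a replicate was not possible for the same reason. Splitting members by Gpihbp1 and Aplnr leaves 27 to 91 barcodes a group, where counting error is widest.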
